A study of Mus musculus with 9 samples.

Results

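B cell genes were read in heart RNA of control, diabetic and spermine-treated diabetic mice. The members are 9 genes chosen by name with earlier results of these data known, Ighm, Igkc, Cd79a, Cd79b, Ms4a1, Cd22, Pax5, Fcmr and Blk, of which 7 have a row among the 22851 genes of the count table used here. Igkc and Ms4a1 are not analysed here. The other 7 passed the low-count filter in every comparison. The study sequenced 9 libraries of mice, 3 in each group, of the strain C57BL/6 by the labels and C57BL/6J by the study's methods. CK was the control group, DCM mice were diabetic for 12 weeks after streptozotocin at 180 mg/kg, and SPM mice received spermine at 1 mg/kg, from 2 weeks before the same streptozotocin dose and through the diabetic period. No group carries a transgene, and streptozotocin is the agent that DCM and SPM share. The labels give heart as the tissue, although the extraction protocol speaks of retinas, and the paper describes a library both as 1 mouse and as a pool of 6 hearts. The p-values below therefore measure the spread between libraries, which may be technical in part.

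A B cell carries a membrane immunoglobulin that binds antigen and, beside it, a pair of signalling chains. In a naive B cell the heavy chain of that receptor is IgM, encoded by Ighm, or IgD, encoded by Ighd. After stimulation a B cell may switch to IgG or IgA and may mature into an antibody-secreting plasma cell, which lowers the receptor and its B cell transcription factors. The mouse heart is known to hold a small population of B cells, many of them inside or along its small vessels, so that a whole-heart library reads both blood and tissue cells.

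Heart muscle genes dominated every library, with 30310 to 44452 CPM (counts per 1000000 counts of the library) summed over 5 genes led by Myh6, Myl2 and Tnnt2, while the retina genes Sag and Gnat1 had 7 to 33 and 0 to 10 counts in a library. Total counts were 29901300 to 39718680 per library, so that 1 count was worth 0.0252 to 0.0334 CPM. SPM replicate 2 stood apart from an ordinary replicate. Its counts were described by a mixture of 44.9% of SPM replicate 1 with SPM replicate 3, with a median squared deviation of 0.877 times counting noise over 11990 genes, whereas the other 251 ways to write a library as a mixture of a pair gave at least 2.68. Whether it is an independent library is in doubt, and results that rest on SPM are given with and without it. Leaving it out lowers the calls over all genes from 521 to 56 in SPM compared to DCM, 0.378% of the genes then tested, and from 1342 to 771 in SPM compared to CK. Calls below come from the quasi-likelihood test of edgeR on counts, 2 groups at a time, at a Benjamini-Hochberg adjusted p below 0.05 over all genes tested and a fold change of at least 1.5.

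Promoter sequence was at hand for 4 of the 9 members in the RefSeq table of GRCm38.p6, namely Cd79a, Cd22, Pax5 and Fcmr. These 4 are shown because no promoter of the other members was at hand. The 250 bases before the gene's start in RefSeq are read 5′ to 3′ on the gene's strand. Capitals mark matches on either strand to 4 letter strings linked to B cell transcription factors, the octamer ATGCAAAT, the early B cell factor string CCCNNGGG, the E-box CAGGTG and the PU.1 string AGGAAGT. No match overlapped another.
Cd79a, chr7:24897247-24897496, plus strand: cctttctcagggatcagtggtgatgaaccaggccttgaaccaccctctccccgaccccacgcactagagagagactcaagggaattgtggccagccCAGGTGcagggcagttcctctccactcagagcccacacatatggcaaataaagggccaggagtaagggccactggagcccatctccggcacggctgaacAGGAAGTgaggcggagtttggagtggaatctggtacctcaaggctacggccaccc
Cd22, chr7:30879029-30879278, minus strand: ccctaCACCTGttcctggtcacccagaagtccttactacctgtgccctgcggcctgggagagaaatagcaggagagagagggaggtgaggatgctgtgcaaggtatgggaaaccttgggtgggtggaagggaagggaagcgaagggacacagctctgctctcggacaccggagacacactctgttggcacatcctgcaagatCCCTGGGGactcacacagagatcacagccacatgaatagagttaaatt
Pax5, chr4:44710695-44710944, minus strand: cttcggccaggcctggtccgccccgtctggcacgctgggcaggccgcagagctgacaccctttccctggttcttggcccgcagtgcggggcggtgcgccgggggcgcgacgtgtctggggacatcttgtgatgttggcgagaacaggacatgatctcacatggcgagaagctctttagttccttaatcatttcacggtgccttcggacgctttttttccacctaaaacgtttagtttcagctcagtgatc
Fcmr, chr1:130865527-130865776, plus strand: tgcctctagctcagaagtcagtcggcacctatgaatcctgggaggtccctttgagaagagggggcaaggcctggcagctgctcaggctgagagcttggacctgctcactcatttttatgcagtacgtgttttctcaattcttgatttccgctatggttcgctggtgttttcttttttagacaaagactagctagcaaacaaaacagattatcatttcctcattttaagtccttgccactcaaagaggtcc

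In the Cd79a promoter the E-box lies at -154 to -149 and the PU.1 string at -55 to -49 from the gene's start. The Cd22 promoter holds the E-box in its reverse form CACCTG at -245 to -240 and the string CCCTGGGG at -48 to -41. The windows of Pax5 and Fcmr hold none of the 4 strings. Over 32851 mouse promoters of the same length, the octamer is found in 1.6%, CCCNNGGG in 11.8%, the E-box in 17.2% and the PU.1 string in 7.69%, as a background for these matches. RefSeq and GENCODE place the start of a gene differently. The RefSeq starts of Cd79a, Cd22 and Fcmr lie inside the GENCODE gene, and that of Pax5 lies before it. The PU.1 string of Cd79a and the matches of Cd22 also lie inside the GENCODE gene.

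The heavy chain gene Ighm (ENSMUSG00000076617, GRCm38 chromosome 12 from 113418558 to 113422730, minus strand) was the most abundant member. Per length, in FPKM (CPM per kilobase of gene length), it had a mean of 14.8 FPKM over the 9 libraries, and the 6 others followed in the order Blk (2.42 FPKM), Cd79a (2.11), Cd79b (1.62), Fcmr (0.947), Cd22 (0.292) and Pax5 (0.176). In CK replicates 1 to 3 Ighm had 49.9, 39.3 and 24.3 CPM, in DCM 22.8, 13.7 and 14.0 CPM, and in SPM 21.3, 21.01 and 20.1 CPM. All DCM and all SPM libraries lay below all CK libraries, and the SPM libraries lay inside the range of DCM. Group means were 37.8 ± 12.8, 16.9 ± 5.16 and 20.8 ± 0.622 CPM (SD, n = 3).

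The signalling chains of the receptor are encoded by Cd79a (ENSMUSG00000003379, chromosome 7 from 24897381 to 24902197, plus strand) and Cd79b (ENSMUSG00000040592, chromosome 11 from 106311341 to 106314762, minus strand). Cd79a had 7.93, 6.35 and 2.14 CPM in CK, 2.74, 0.884 and 2.37 in DCM, and 0.658, 2.01 and 2.54 in SPM. Cd79b had 6.52, 4.62 and 1.94 CPM in CK, 2.44, 0.720 and 0.973 in DCM, and 1.14, 1.29 and 1.24 in SPM. CK replicates 1 and 2 were high for both genes. CK replicate 3 lay within the range of DCM for both, and within that of SPM for Cd79a, whereas for Cd79b it stayed above all SPM libraries.

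Cd22 (ENSMUSG00000030577, chromosome 7 from 30865402 to 30880342, minus strand) encodes a sialic acid binding lectin that dampens the receptor. Its levels were 2.94, 1.94 and 0.702 CPM in CK, 1.66, 0.164 and 0.572 in DCM, and 0.449, 0.879 and 1.14 in SPM, so that all 3 groups overlapped. Fcmr (ENSMUSG00000042474, chromosome 1 from 130865669 to 130880791, plus strand), the Fc receptor for IgM, had 4.25, 3.27 and 1.27 CPM in CK, 1.86, 0.0327 and 0.830 in DCM, and 0.359, 0.879 and 0.890 in SPM. The value of Fcmr in DCM replicate 2 was 1 count, with an exact Poisson interval of 0.0253 to 5.57 counts, which covers counting error only.

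The transcription factor Pax5 (ENSMUSG00000014030, chromosome 4 from 44524757 to 44710487, minus strand) holds cells in the B lineage and activates Cd79a and other receptor genes. It had 2.54, 3.82 and 1.54 CPM in CK, 1.64, 0.164 and 0.629 in DCM, and 0.449, 0.785 and 1.11 in SPM. CK lay above SPM throughout, but DCM replicate 1 was above CK replicate 3. Antisense genes overlap Cd22 and Pax5 and the strandedness of the libraries is not given in the sources used here, so reads of those genes could not be told from theirs.

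Blk (ENSMUSG00000014453, chromosome 14 from 63372836 to 63417037, minus strand), a Src family kinase of the receptor pathway, had the narrowest range of the members. Its levels were 8.33, 7.12 and 4.78 CPM in CK, 4.68, 4.78 and 5.04 in DCM, and 4.25, 6.03 and 5.75 in SPM. Its highest library was 1.96 times its lowest, whereas that ratio was 3.63 for Ighm, 9.06 for Cd79b, 12.0 for Cd79a, 17.99 for Cd22 and 23.4 for Pax5. Over the 9 libraries, which share their depth between genes, Pearson's r of log2 CPM between member pairs ran from 0.688 for Pax5 with Blk to 0.962 for Ighm with Cd79b, and the 5 lowest pairs all held Blk.

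**Figure D1:**
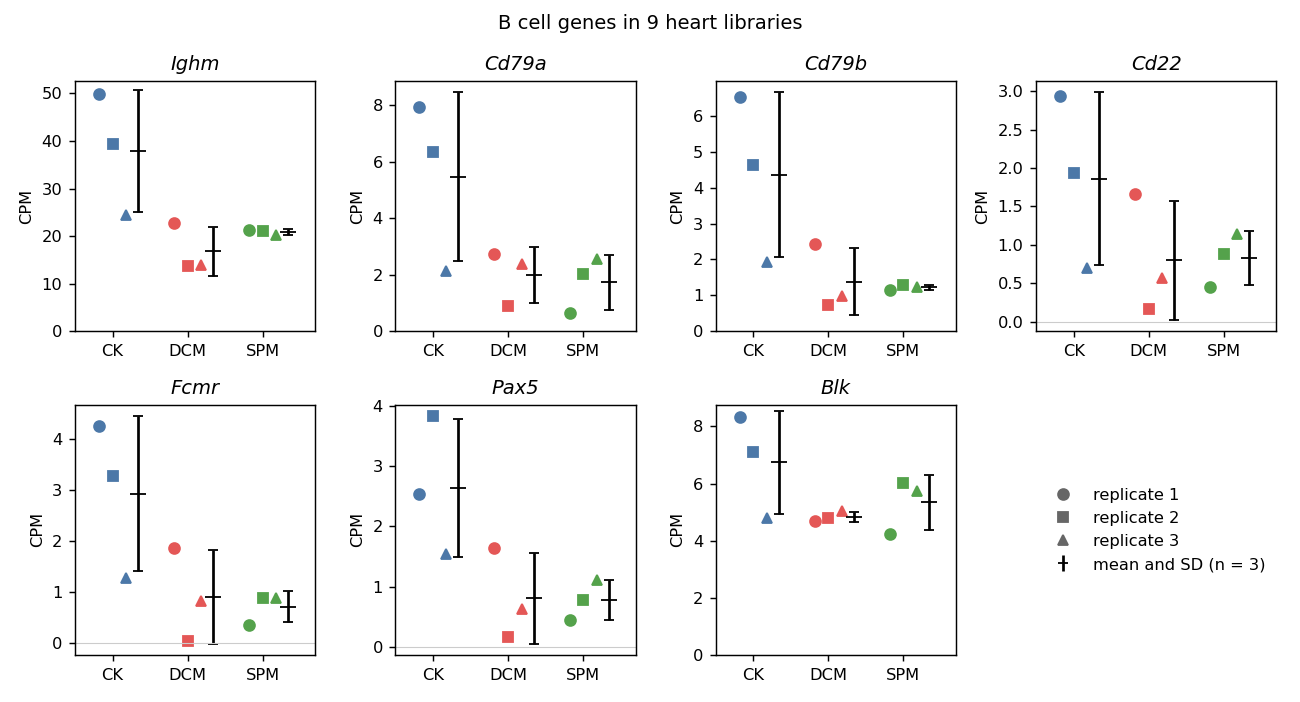
Levels of the 7 B cell genes, in CPM, for each of the 9 libraries by group, with the mean and SD of each group (n = 3) at its right. CK replicates 1 and 2 are the highest libraries for all 7 genes, CK replicate 3 lies nearer to the diabetic libraries, and the SPM libraries of Ighm and Cd79b lie close together.

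In DCM compared to CK all 7 B cell genes had lower fitted levels, and 1 of them passed both limits. Ighm fell by 1.07 on the log2 scale (standard error 0.23, adjusted p = 0.0102 by edgeR), and its groups did not overlap. Over all 14402 genes tested 4.34% were called, 2.31% lower and 2.03% higher, and 14.7% had all DCM libraries below all CK libraries. At an unadjusted p below 0.05 there were 5 of the 7 members, beside 24.6% of all genes. The median log2 fold change of the 7 members was -1.35, beside -0.0025 over all genes tested. Cd79b had a log2 fold change of -1.55, with a standard error of 0.46 and an adjusted p of 0.0508 by edgeR, just outside the limit.

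The other 5 members did not pass in DCM compared to CK. Cd79a had a log2 fold change of -1.35 (adjusted p = 0.0731), Pax5 of -1.58 (adjusted p = 0.0988) and Fcmr of -1.56 (adjusted p = 0.179) by the same edgeR test. For Cd22 it was -1.10 with a 95% interval of -2.50 to 0.30, and for Blk -0.39 with an interval of -0.82 to 0.04. The call of Ighm rested on few libraries. Without DCM replicate 2 its log2 fold change was -0.96 and without DCM replicate 3 it was -0.95, with adjusted p-values of 0.0593 and 0.0571 by edgeR, and then no member was called. Without CK replicate 3, Ighm, Cd79a and Cd79b were called, and without DCM replicate 1, Ighm, Cd79b and Pax5 were.

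None of the 7 members passed the limits in SPM compared to DCM. Of the 7 members, 0 were called by edgeR, 0 reached an unadjusted p below 0.05, which 34.6% of the 14493 genes tested did, and DESeq2 called 0 as well. Over all genes edgeR called 3.59%, 0.89% lower and 2.7% higher. In 0 members did the groups lie apart, beside 19.6% of all genes with SPM wholly below DCM and 19.7% with SPM wholly above. The median log2 fold change of the members was -0.07, beside 0.0057 over all genes tested. Ighm had a log2 fold change of 0.31 with a 95% interval of -0.04 to 0.67, Cd79a of -0.21 (interval -1.27 to 0.85), Cd79b of -0.17 (interval -1.09 to 0.75) and Blk of 0.15 (interval -0.21 to 0.52). The intervals of Cd22 (-1.39 to 1.44), Pax5 (-1.45 to 1.32) and Fcmr (-2.07 to 1.33) leave room for changes of more than 2-fold in either direction. These tests do not show that the levels were equal. Without SPM replicate 2 the values for Ighm, Cd79a and Cd79b were 0.31, -0.32 and -0.21, and 0 members were called.

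Between SPM and CK, all 7 members had lower fitted levels in SPM, and 4 of them were called. On the log2 scale Ighm fell by 0.76 ± 0.21 (standard error, adjusted p = 0.0269 by edgeR), Cd79b by 1.73 ± 0.40 (adjusted p = 0.0138), Pax5 by 1.66 ± 0.42 (adjusted p = 0.0217) and Fcmr by 1.95 ± 0.49 (adjusted p = 0.0205). In these 4 genes all SPM libraries lay below all CK libraries, as they did in 23.5% of the 14574 genes tested, of which 9.21% were called, 4.12% lower and 5.08% higher. Cd79a had a log2 fold change of -1.56 (adjusted p = 0.0592), Cd22 of -1.08 (adjusted p = 0.158) and Blk of -0.24 (adjusted p = 0.436) in the same edgeR fit, and none of these passed. At an unadjusted p below 0.05 there were 5 of the 7, beside 40.9% of all genes. The median over the 7 members was -1.56, beside 0.0022 over all genes.

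Cd79b was the member that held its call in SPM compared to CK in all 16 alternative fits, with log2 fold changes between -2.09 and -1.34. Without SPM replicate 2 it stayed called at an adjusted p of 0.0499 by edgeR, while Ighm (adjusted p = 0.0776), Pax5 (adjusted p = 0.0797) and Fcmr (adjusted p = 0.0547) did not pass, though their log2 fold changes were -0.77, -1.66 and -2.13. The same 3 genes also lost their calls without CK replicate 1 and without CK replicate 2, Pax5 and Fcmr lost theirs with all 9 libraries fitted jointly, and 6 members were called without CK replicate 3. Both comparisons with CK use the same CK libraries, so that their likeness is no second observation.

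**Figure D2:**
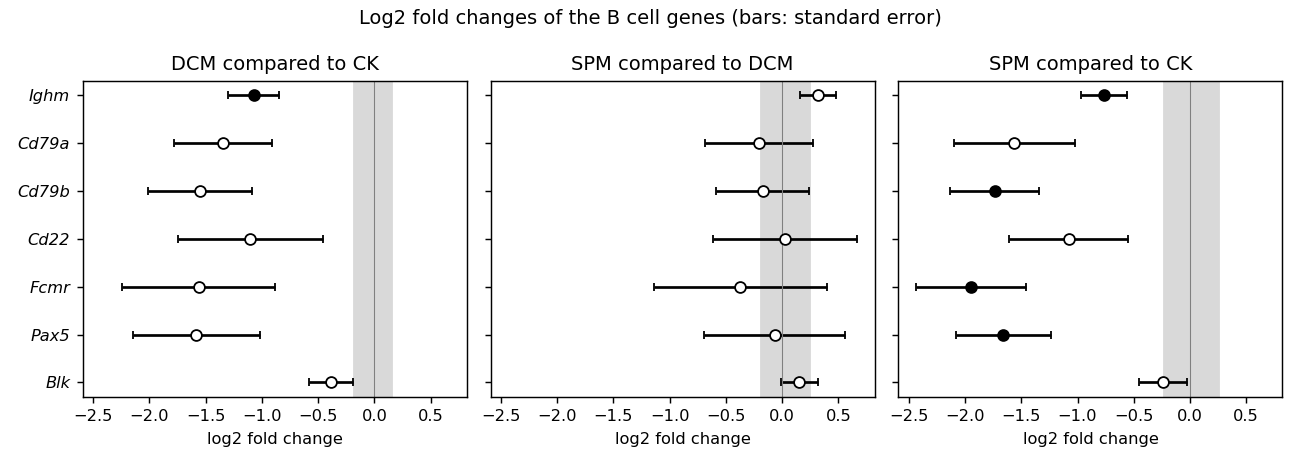
Log2 fold changes of the 7 B cell genes in the 3 comparisons, with bars for 1 standard error, filled points for genes called and a grey band for the middle 50% of all genes tested. Every member lies left of 0 in both comparisons with CK, with 1 called for DCM and 4 for SPM, and the members spread on both sides of 0 in SPM compared to DCM.

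The differences were also differences between CK libraries. CK replicates 1 and 2 were the 2 highest libraries for 7 of the 7 members, CK replicate 1 the highest for 6 of them, and DCM replicate 2 the lowest for 5. Summed over the members, the level was 82.4, 66.4 and 36.7 CPM in CK, 37.8, 20.5 and 24.4 in DCM, and 28.6, 32.9 and 32.8 in SPM, with means of 61.8 ± 23.2, 27.6 ± 9.10 and 31.5 ± 2.43 CPM (SD, n = 3). CK replicate 3 lay below DCM replicate 1 in this sum. Ighm supplied 61.1% of the members' counts in CK, 60.9% in DCM and 66.4% in SPM. In such bulk libraries fewer B cells and less RNA per B cell cannot be told apart.

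The sum of the T and NK cell genes was lower in every DCM and SPM library than in every CK library. That did not hold for the sum of the B cell members. The summed level of 20 T and NK cell genes, led by Cd247, Cd4 and Lck, was 32.4, 28.3 and 21.5 CPM in CK, 15.6, 8.21 and 12.2 in DCM, and 16.7, 16.7 and 14.7 in SPM. Of 18 such genes tested in DCM compared to CK, 4 were called lower and 0 higher, beside 2.31% and 2.03% of all genes tested. The median log2 fold change of the 18 was -1.07. Of 17 tested in SPM compared to DCM, 1 was called higher and 0 lower, beside 2.7% and 0.89% of all genes tested. It was the cytotoxic granule gene Gzmb (log2 fold change 2.52), named after its value was seen. Of the 17, 13 had log2 fold changes above 0, with a median of 0.52 beside -0.07 for the members. Without SPM replicate 2 that median was 0.45 and 0 were called. In SPM compared to CK 3 of 18 were called lower and 0 higher, beside 4.12% and 5.08% of all genes tested. Without SPM replicate 2 it was 1 of 19 lower and 0 higher, with 5.18% of all genes called then. The defining T cell gene Cd3e had only 0 to 7 counts in a library. Red cell RNA also varied. The 4 haemoglobin genes, among them Hbb-bs, Hba-a1 and Hbb-bt, summed to 3798, 2882 and 1589 CPM in CK, 3289, 1285 and 1734 in DCM, and 737, 1013 and 1264 in SPM. In DCM compared to CK edgeR called 0 of the 4, 0 of them had an unadjusted p below 0.05, and DESeq2 called 0. For SPM compared to DCM edgeR called 4 of 4 lower, with 0 without SPM replicate 2 and 0 by DESeq2, and in SPM compared to CK 4 of 4 lower, with 3 without SPM replicate 2. The libraries highest in haemoglobin, CK replicates 1 and 2 and DCM replicate 1, were also the 3 highest for Cd79a, Cd79b, Cd22, Pax5 and Fcmr. The part of the blood left in a heart in these levels was not tested.

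Macrophage, neutrophil and fat cell genes were read in the same fits. Over all genes tested, 2.31% were called lower and 2.03% higher in DCM compared to CK. In SPM compared to DCM it was 0.89% lower and 2.7% higher. Of 12 macrophage genes, led by Lyz2, Csf1r and C1qa, 3 were called lower in DCM compared to CK. There 10 of the 12 had log2 fold changes below 0 and 2 above, with a median of -0.48. In SPM compared to DCM 7 of the 12 were called higher. Without SPM replicate 2 the 7 calls became 0, although the median log2 fold change of the 12 was 0.64 then and 0.63 with it. Of the neutrophil genes, led by S100a9, Csf3r and Mmp9, 2 of 6 tested were called higher in DCM compared to CK and 6 of 8 in SPM compared to DCM, with 1 without SPM replicate 2 at a median log2 fold change of 1.32 then and 1.29 with it. The 6 neutrophil genes tested in DCM compared to CK all had log2 fold changes above 0, with a median of 1.04. The 7 fat cell genes, led by Cfd, Cidec and Adipoq, summed to 148 CPM in CK replicate 2 and to 16.4 to 57.6 CPM elsewhere. Of the 6 fat cell genes tested in each comparison edgeR called 0. In DCM compared to CK all 6 had log2 fold changes below 0, with a median of -1.06. At an unadjusted p below 0.05 there was 1 in DCM compared to CK, 1 in SPM compared to DCM and 0 in SPM compared to CK, and DESeq2 called 1 in SPM compared to DCM. The part of these cell types in the B cell values was not tested.

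**Figure D3:**
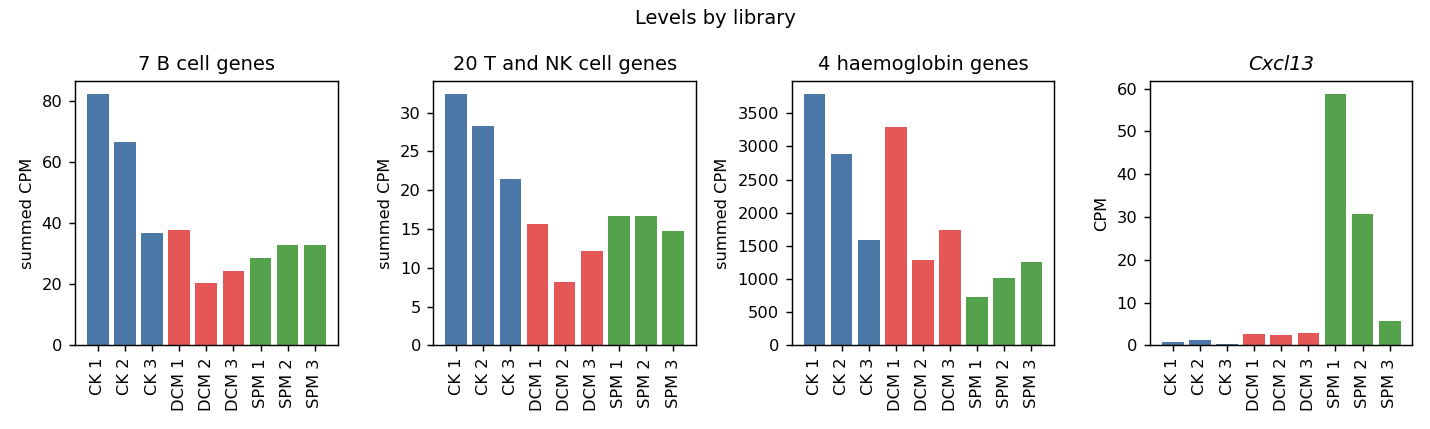
Bars from 0 give, for each of the 9 libraries, the summed CPM of the 7 B cell genes, of 20 T and NK cell genes and of 4 haemoglobin genes, and the CPM of the chemokine gene Cxcl13. The B cell sum is highest in CK replicates 1 and 2, haemoglobin is high in those and in DCM replicate 1, and Cxcl13 is high in SPM, with 58.8 CPM in replicate 1 and 5.72 CPM in replicate 3.

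A wider list of B cell genes was read in the same fits. Of 22 listed genes, 17 passed the low-count filter for DCM and CK. All 17 had lower fitted levels in DCM, with a median log2 fold change of -0.93. Of these, 3 were called lower and 0 higher, beside 2.31% and 2.03% of all genes tested. Ighd, the IgD heavy chain gene, fell by 1.70 on the log2 scale, from 9.9996, 7.09 and 3.84 CPM in CK to 3.35, 0.884 and 1.75 CPM in DCM (adjusted p = 0.0184, edgeR). Spib, an Ets family transcription factor of B cells and plasmacytoid dendritic cells, fell by 2.02 (adjusted p = 0.0251, edgeR), and Tnfrsf13b, which encodes the TACI receptor for the survival factors BAFF and APRIL, fell by 0.93 (adjusted p = 0.0458, edgeR). All 3 calls were lost when single libraries were left out, in 3 to 5 of 6 such fits, with adjusted p-values up to 0.158.

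The most abundant genes of this list did not pass. Ebf1 had 17.3 to 26.4 CPM over the 9 libraries, Ralgps2 8.12 to 12.7 CPM and Cd37 3.67 to 12.1 CPM. None of them was called in any comparison. From DCM to SPM Ebf1 rose by 0.38 on the log2 scale (adjusted p = 0.0217, edgeR), below the 1.5-fold limit. SPM replicates 1 and 3 had 22.5 and 26.4 CPM, against 17.3 to 19.6 CPM in DCM. All SPM libraries lay above all DCM libraries, as in 19.7% of all genes tested. Ebf1, an early B cell factor, is also made by fat precursor and vessel wall cells, and its level is therefore no measure of B cells in a heart.

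Of 17 genes of the wider list tested for SPM and CK, 4 were called lower in SPM and 0 higher. Over all genes tested the shares were 4.12% lower and 5.08% higher. Fcrla, an Fc receptor-like protein inside B cells, fell by 3.93 on the log2 scale, from 61, 32 and 22 counts in CK to 2, 4 and 1 counts in SPM, and stayed called in all 15 alternatives that tested it. Spib fell by 2.36 and stayed called in all 16 alternatives. Pou2af1, a coactivator at octamer sites of immunoglobulin genes, fell by 1.51 and Fcer2a, the low-affinity IgE receptor CD23, fell by 1.92. Pou2af1 lost its call in 4 of 16 alternatives and Fcer2a in 8 of 15, SPM replicate 2 left out among both, and CK replicate 3 lay within the SPM range for Fcer2a. Of 14 tested in SPM compared to DCM 1 was called, Cd72, beside 3.59% of all genes tested. Cd72, an inhibitory coreceptor that macrophages also make, rose by 1.26 on the log2 scale (adjusted p = 0.0463, edgeR) although its groups overlapped. That call was lost in 8 of 16 alternatives, SPM replicate 2 left out among them.

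Among the antibody classes 2 IgG genes rose. The IgG2c heavy chain gene Ighg2c rose in DCM compared to CK, from 1.505, 3.59 and 2.24 CPM in CK to 7.58, 6.74 and 7.58 CPM in DCM, and stood at 4.07, 3.298 and 4.19 CPM in SPM. All DCM libraries were above all others. DCM lay wholly above CK in 14.6% of all genes tested, and SPM lay wholly below DCM in 19.6%. The share of genes with both was not counted. The log2 fold change was 1.66 in DCM compared to CK (standard error 0.25, adjusted p = 0.00145 by edgeR), and the gene stayed called in all 16 alternatives, with log2 fold changes of 1.41 to 2.04. From DCM to SPM Ighg2c fell by 0.91 on the log2 scale (adjusted p = 0.0102, edgeR), but without SPM replicate 2 the value was -0.81 at an adjusted p of 0.0566.

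Ighg2b, the IgG2b gene, had 9, 16 and 1 counts in CK, 28, 4 and 8 in DCM, and 53, 49 and 65 in SPM. It rose by 2.74 on the log2 scale in SPM compared to CK (standard error 0.57, adjusted p = 0.0100, edgeR) and stayed called in all 16 alternatives. Over DCM it rose by 2.24 (adjusted p = 0.0184, edgeR), and without SPM replicate 2 the value was 2.33 at an adjusted p of 0.0668. That call was also lost without DCM replicate 2 and without DCM replicate 3, at adjusted p-values of up to 0.0715 by edgeR. Ighg2b and Ighg2c are near-identical in parts, so that the counting could have split reads between them.

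Read as shares of all heavy chain constant region counts, Ighm held 70.0%, 68.7% and 72.6% in CK, 59.8%, 59.2% and 48.5% in DCM, and 68.6%, 65.6% and 58.6% in SPM. Ighg2c held 2.11%, 6.28% and 6.68% in CK, 19.9%, 29.0% and 26.2% in DCM, and 13.1%, 10.3% and 12.2% in SPM. The 3 groups did not overlap in the share of Ighg2c. The Wilson 95% interval was 17.9% to 22.0% in DCM replicate 1, the lowest DCM library, and 5.29% to 8.40% in CK replicate 3, the highest CK library, which covers counting error only. Ighg2b held 0.0997% to 0.823% in CK and 0.563% to 1.85% in DCM, but 4.80% to 6.01% in SPM. The IgA gene Igha had 9.46, 6.59 and 2.91 CPM in CK, 3.68, 1.73 and 5.01 in DCM, and 2.36, 2.51 and 3.34 in SPM, and was not called in any comparison.

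**Figure D4:**
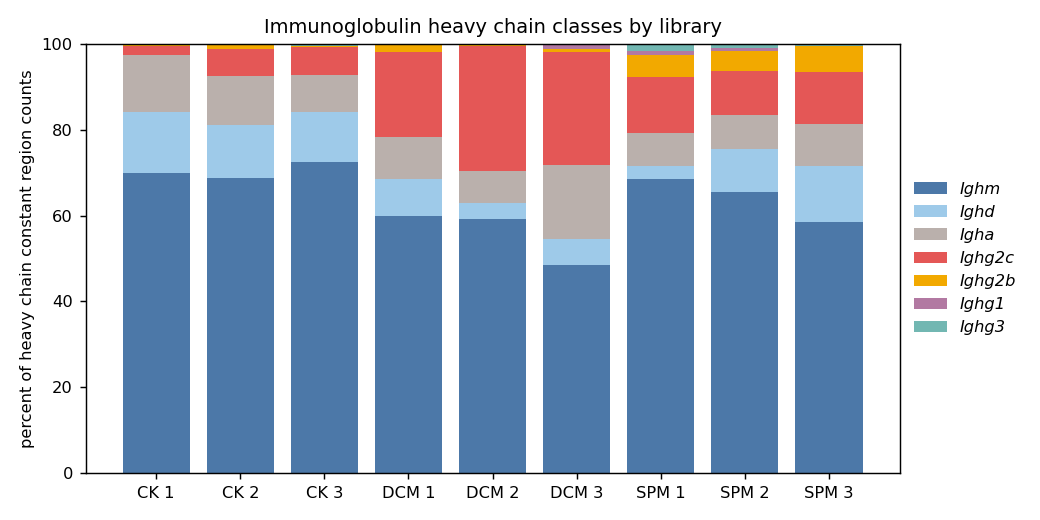
Stacked bars give, for each of the 9 libraries, the percentage of heavy chain constant region counts that each class gene holds. The Ighg2c share is 19.9% to 29.0% in DCM, 10.3% to 13.1% in SPM and 2.11% to 6.68% in CK, and the Ighg2b share is largest in SPM.

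Immunoglobulin variable region genes, which differ from one B cell clone to the next, had 447, 379 and 101 counts in CK, 292, 84 and 122 in DCM, and 103, 164 and 200 in SPM over 150 such genes. The number of them with at least 1 count was 95, 91 and 49 in CK, 70, 27 and 37 in DCM, and 32, 50 and 46 in SPM, which depends on the counts at hand. Thinned to 84 variable region counts in every library, the expected number was 49.3, 45.9 and 42.9 genes in CK, 45.3, 27.0 and 31.2 in DCM, and 28.3, 34.7 and 31.5 in SPM. All CK libraries were above all SPM libraries, and DCM replicate 1 lay among CK. The most abundant variable gene held 21.4% of these counts in DCM replicate 2, where it was Igkv4-91, and 14.6% in SPM replicate 1, where it was Igkv3-12, against 4.79% to 10.98% elsewhere. Ighv1-66 led in SPM replicate 3 with 20 counts and in SPM replicate 2 with 18, the library described above as a mixture.

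Few other plasma cell genes passed the limits. Of 9 tested in DCM compared to CK, Ighg2c was called higher and Prdm1, the factor Blimp-1 of plasma cells and of many T cells and macrophages, fell by 0.97 on the log2 scale (adjusted p = 0.0419, edgeR), a call lost in 7 of 16 alternatives. In all, 7 of the 9 had log2 fold changes below 0, with a median of -0.65. Over all genes tested in that comparison 4.34% were called. Jchain, which joins IgM and IgA polymers, had a log2 fold change of -0.65 (95% interval -1.79 to 0.50) there. In SPM compared to DCM Jchain had a value of 1.17 (interval 0.22 to 2.12) and was not called (adjusted p = 0.0838, edgeR). It had 1.58, 1.88 and 2.41 CPM in SPM and 0.957, 0.295 and 1.34 CPM in DCM. The groups lay apart, as in 19.7% of all genes with SPM wholly above. Xbp1 and Sdc1, which many other cells make, had 75.1 to 90.5 and 10.3 to 19.1 CPM. Xbp1 was not called in any comparison, and Sdc1 fell by 0.59 in SPM compared to CK, close to the fold-change limit, a call lost in 3 of 16 alternatives. Tnfrsf17, the plasma cell receptor BCMA, fell by 1.49 in SPM compared to CK, which was lost in 7 of 15 alternatives, SPM replicate 2 left out among them.

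Genes that carry the receptor's signal inside the cell were mostly abundant beyond B cells. Grb2, Syk and Nfatc1, the most abundant, had means of 118, 59.4 and 39.3 CPM and were not called in any comparison. In DCM compared to CK 2 of 18 were called lower and 0 higher, beside 2.31% and 2.03% of all genes tested. The median over the 18 was -0.33 on the log2 scale. The adaptor Blnk fell by 0.93 on the log2 scale, from 7.36, 6.30 and 5.35 CPM in CK to 2.996, 2.68 and 3.69 CPM in DCM, and the kinase gene Prkcb fell by 0.75, from 9.97, 10.1 and 9.16 CPM to 5.64, 4.65 and 5.98 CPM. Both stayed called in all 16 alternatives. Btk, the kinase that acts with Blnk, had a log2 fold change of -1.22 (adjusted p = 0.105, edgeR).

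Against CK 1 of 18 was called in SPM, namely Blnk, beside 9.21% of all genes tested, 4.12% lower and 5.08% higher. Blnk fell by 0.77 and stayed called in all 16 alternatives, with SPM levels of 3.20, 3.67 and 3.56 CPM. Between SPM and DCM 4 of 18 were called higher in SPM and 0 lower, beside 2.7% and 0.89% of all genes tested. The median over the 18 was 0.32 on the log2 scale. They were Pik3ap1 (1.06), Prkcb (0.68), Rac2 (0.63) and Vav1 (0.61), genes that myeloid cells also make, and 0 of the 4 stayed called without SPM replicate 2, where the values were 1.11, 0.70, 0.66 and 0.55. Macrophage and neutrophil genes were called higher in the same comparison, as given above, and their part in these 4 values was not tested.

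Among ligands that guide or sustain B cells, Cxcl13, the chemokine that draws CXCR5-bearing B cells, rose in DCM and in SPM. No member of the B cell set was called higher in any comparison. Cxcl13 had 0.736, 1.15 and 0.267 CPM in CK, 2.59, 2.49 and 2.80 in DCM, and 58.8, 30.7 and 5.72 in SPM. The 3 groups did not overlap. The log2 fold change was 1.95 in DCM compared to CK (standard error 0.41, adjusted p = 0.00965, edgeR), 3.61 in SPM compared to DCM (standard error 0.65, adjusted p = 0.0119, edgeR) and 5.53 in SPM compared to CK (standard error 0.88, adjusted p = 0.00351, edgeR). The rise over CK in DCM was not called with all 9 libraries fitted jointly (adjusted p = 0.162, edgeR). The rise over DCM was not called without DCM replicate 1 (adjusted p = 0.0573, edgeR) or without DCM replicate 2 (adjusted p = 0.0744, edgeR) and was 2.79 without SPM replicate 1 and 3.63 without SPM replicate 2. SPM replicate 1, the highest in Cxcl13, was the lowest of the 9 libraries for Cd79a and Blk. For the other 5 members the lowest was DCM replicate 2. Within SPM, Ighm was highest in replicate 1, with 21.3 CPM against 21.01 and 20.1 CPM.

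Cxcl12, which keeps B cell precursors in marrow and is made by vessel cells, had 261 to 391 CPM and was not called in any comparison. Tnfsf13b, the survival factor BAFF, had 1.304 to 3.92 CPM and was not called either. Il7 rose by 1.13 on the log2 scale in SPM compared to DCM, which was lost in 6 of 16 alternatives, SPM replicate 2 left out among them. Ltb, the lymphotoxin beta gene that lymphocytes themselves make, fell by 1.29 in SPM compared to CK, which was lost in 5 of 16 alternatives, again SPM replicate 2 among them.

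**Figure D5:**
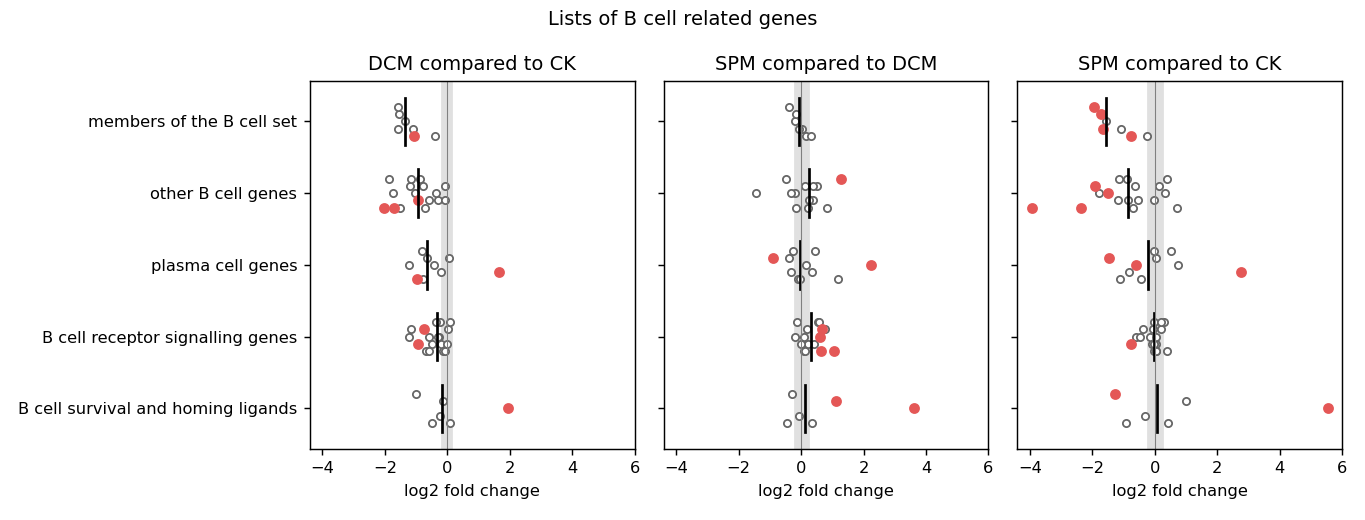
Log2 fold changes of every tested gene of the 7 B cell genes and of 4 further lists in the 3 comparisons, with called genes in red, the median of each list as a black bar and the middle 50% of all genes tested as a grey band. Medians lie at -1.35 and -0.93 for the top rows in DCM compared to CK, and the separate red points at the right are Ighg2c, Ighg2b and Cxcl13.

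The genes outside all lists whose levels were most like the mean standardized log2 level of the 7 members were sought among 12524 genes with a mean of at least 1 CPM. H2-DMb2 and H2-Ob, which encode chains that edit peptide loading on MHC class II, had Pearson's r of 0.987 and 0.977 over the 9 libraries, and Itgb7, an integrin chain of lymphocytes, 0.987. H2-DMb2 had 101, 112 and 31 counts in CK, 58, 14 and 34 in DCM, and 22, 34 and 44 in SPM. The next were Prelid1 (0.966), 9530068E07Rik (0.965), Mfsd10 (0.965), Grap2 (0.961) and Cd300a (0.957). Without SPM replicate 2 the r of these 8 genes lay between 0.958 and 0.994. The libraries share depth and composition between genes, so that these are descriptions of these 9 libraries.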

How the data were processed

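The authors cleaned the reads with fastp 0.18.0. They deposited raw counts and FPKM values, which equal the deposited counts divided by 1 length per gene and the library total. The submitters' processing notes name Bowtie 0.12.2 and the builds mm8 and mm9 without a role, and the counting tool is not given in the sources used here. Symbols and coordinates came from GENCODE M21 on GRCm38 by identifier, with 22844 of 22851 matched. Libraries were grouped by their titles. Counts were compared 2 groups at a time in edgeR 4.0.16 (R 4.3.3), with filterByExpr, TMM normalization, glmQLFit and glmQLFTest, and Benjamini-Hochberg adjustment over all genes tested. Calls were made at an adjusted p below 0.05 with a change of 1.5-fold or more. The standard error is the log2 fold change divided by the square root of F, and 95% intervals use the fit's t quantile. The step was tested on simulated data. FPKM served for levels between genes and, as log2 of FPKM plus 0.1, for limma 3.58.1. The alternatives were a fold change of 1.3 or none, DESeq2 1.42.0, RLE, the low-count filter left out, a minimum of 1 CPM in 3 libraries, a joint fit of all 9 libraries, the replicate number as a block, limma, a GC correction (lowess span 0.3), and each library left out. Named genes were the members, the 3 most abundant genes of each other list, the genes called in the 4 further B cell lists, and the 8 genes outside all lists most like the members in log2 of CPM plus 0.5. Single values of 2 listed genes are not reported here. Members and lists were chosen with earlier results of these data known. Figures were drawn with matplotlib 3.10.9 in Python 3.11.15.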

Additional observations from a re-analysis of the deposited data

How the results depend on the processing

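In DCM compared to CK 1 B cell gene was called, and DESeq2 gave 3, RLE normalization 2, no low-count filter 5, all 9 libraries in one fit 2, the replicate block 2 and the GC correction 2, with 0 to 3 when 1 library was left out. Over all genes the calls were 625 of 14402, and 693 of 14815 by DESeq2, 638 of 14402 by RLE and 857 of 22105 without the filter. They were 680 of 14909 in the joint fit, 568 of 14402 with the block and 661 of 14392 after the GC correction. With 1 library left out they were 427 to 704. In SPM compared to CK the 4 calls became 1 to 6 when 1 library was left out. There was 1 call without CK replicate 1, CK replicate 2 or SPM replicate 2, with 996, 1256 and 771 calls over all genes. In SPM compared to DCM 0 were called under all 16 alternatives, and 5 members changed sign there. With 1 library left out the log2 fold change ranged from -0.59 to 0.18 for Cd79a, -0.46 to 0.51 for Cd79b, -0.42 to 1.12 for Cd22, -0.52 to 0.94 for Pax5 and -0.91 to 0.67 for Fcmr. It was 0.0077 for Cd79b, 0.058 for Pax5 and 0.18 for Fcmr by limma, and 0.23 for Pax5 and 0.035 for Fcmr with the replicate block. The cause was not tested. No pairing by replicate number was seen, since residuals of same-numbered libraries correlated at -0.168 to 0.114 and others at -0.139 to 0.157. The residuals are deviations from means of 3 libraries, so that a weak pairing could be missed.

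The wider lists held few calls and moved with single libraries. The calls over all genes moved as well. In SPM compared to DCM 521 became 2410 without a fold-change limit, 727 without the filter, 386 by limma and 125 after the GC correction. With a library left out they were 56 to 791. In SPM compared to CK 1342 became 1246 at 1 CPM, 1052 after the GC correction and 771 to 1589 with a library left out. For the other B cell genes in DCM compared to CK, 3 calls became 6 by DESeq2, 7 without the low-count filter and 0 to 7 with a library left out. For SPM against DCM, 1 became 2 without a fold-change limit or without the filter, 0 by limma or the GC correction and 0 to 1 with a library left out. For SPM against CK, 4 became 2 at 1 CPM and 2 to 7 with a library left out. The plasma cell genes gave 2 in DCM compared to CK (1 with the replicate block, 1 to 3 with a library left out), 2 in SPM compared to DCM (0 to 3) and 3 in SPM compared to CK (5 with all 9 libraries, 1 after the GC correction, 1 to 4). Receptor signalling genes gave 2 in DCM compared to CK (4 by DESeq2 and without the filter, 2 to 6), 4 in SPM compared to DCM (2 with all 9 libraries and by limma, 0 to 5) and 1 in SPM compared to CK (2 at a fold change of 1.3 or with none). The ligands gave 1 in DCM compared to CK (2 without the filter, 0 with all 9 libraries, 1 to 2), 2 in SPM compared to DCM (1 with all 9 libraries or the GC correction, 0 to 2) and 2 in SPM compared to CK (1 after the GC correction, 1 to 2). Without Ighm the members summed to 24.001 CPM in CK, 10.7 in DCM and 10.6 in SPM. Counts of 1 to 74 for Cd22, Pax5 and Fcmr in DCM libraries limit their precision.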
